A study of Xenopus laevis with 6 samples.

Results

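Eph receptors and ephrins were examined in the optic tectum of Xenopus laevis tadpoles, the midbrain region that receives retinal axons, at stage 46. The members were all gene copies whose name in the deposited annotation is eph or efn followed by a or b and a number. This gave 30 of 45099 annotated genes, made up of 14 EphA receptors, 3 EphB receptors, 8 ephrin-A ligands and 5 ephrin-B ligands. The species is allotetraploid, so a gene can have a copy on the long (.L) and on the short (.S) subgenome; the 30 genes were 17 L and 13 S copies of 18 symbols, and 12 symbols had both. Per the labels, 3 libraries came from tectum enriched in neural progenitors, of tadpoles exposed to the dark (NPC), and 3 from tectum enriched in immature neurons, of tadpoles exposed to visual stimulation (IN). Cell population and visual condition changed together in all 6 libraries and cannot be told apart. Total RNA was extracted from collected brain regions and treated with DNase; the sources used here do not give how the cells were enriched, how many animals made up a library, or the strain.

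Eph receptors are receptor tyrosine kinases, and ephrins are their ligands on the surface of neighbouring cells. EphA receptors mostly bind ephrin-A proteins, which a lipid anchor holds to the membrane, while EphB receptors mostly bind ephrin-B proteins, which cross the membrane and can signal back into their own cell. In the visual system of frogs, chicks and mice, graded Ephs on retinal axons and graded ephrins in the tectum steer each axon to its place on the map, with A-class pairs acting along the anterior-posterior axis and B-class pairs along the dorsal-ventral axis. In bulk samples such as these, fewer cells of a type and less RNA per cell cannot be told apart.

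Library totals ran from 8422751 to 9914191 reads, of which the 30 genes together held 0.0842% to 0.158%. Midbrain markers (5 symbols, 10 copies) summed to 306 to 551 CPM, reads scaled to a common library size, in NPC and 208 to 614 in IN, and hindbrain markers (6 symbols, 11 copies, 8 of them with 0 reads) to at most 3.62. Forebrain markers (4 symbols, 7 copies) summed to 32.7 to 165 CPM in NPC and 56.3 to 125 in IN. Skin and muscle markers summed to 44.6 to 351 CPM in NPC and 64.4 to 206 in IN. In library 3 of both groups most of this sum was dsp.L. Its reads were 150, 429 and 2178 in NPC against 342, 306 and 1489 in IN. Erythroid markers summed to 0.759 to 119 CPM in NPC, highest in library 2, and 0.206 to 5.38 in IN. Microglia and leukocyte markers summed to 3.75 to 23.6 CPM in NPC and 10.1 to 86.2 in IN, highest in IN library 1. The retina marker crx.S had 154, 0 and 0 reads in NPC against 0, 21 and 58 in IN. The tissue source of these reads was not tested. Progenitor markers summed to 1301 to 3433 CPM in NPC and 1905 to 4184 in IN, and neuronal markers to 5929 to 9988 and 5473 to 7814, so neither list separated the groups named after these cells. The share of reads in coding sequence followed the library number, at 45.1%, 55.1% and 61.0% in NPC libraries 1, 2 and 3 against 45.9%, 54.0% and 60.9% in the same numbers of IN. The members' share of all reads also followed the number, at 0.149%, 0.103% and 0.0842% in NPC and 0.158%, 0.0964% and 0.0897% in IN; a link between these was not tested.

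The reads of these genes lay mostly outside their coding sequence. The deposited mRNA counts covered the whole annotated span of each transcript, introns included: among genes with at least 20 reads and no annotated untranslated region (UTR), 97.7% of 575 genes without introns had equal counts in the mRNA and the coding table, against 11.6% of 3144 genes with introns. In those 3144 the median share of coding reads was 99.3% in the fifth with the shortest introns and 43.5% in the fifth with the longest. Over all 19158 genes with enough reads to test, the median coding share was 52.9% and the median span 23.7 kb. Over the 25 tested Eph and ephrin genes these medians were 15.9% and 54.8 kb. Counts over the span are therefore called whole-span counts here, and the coding counts are given beside them.

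The mixture of coding and other reads differed from gene to gene. epha6.L, with no annotated UTR, spans 335 kb (2L, 19906927 to 20242176, minus strand, build 9.1), of which 0.838% is coding; 505 of its 2277 reads, 22.2%, were counted over coding sequence, and the gene model holds no other exon. epha3.L had 544 coding reads of 2464, 22.1%, and efna5.S 240 of 755, 31.8%, also with no annotated UTR. The ligand efnb1.L had the most whole-span reads of the family, 9771, and only 388 of them, 3.97%, were coding; its annotated 3′ UTR is 2598 bases and its span 61.3 kb. efna2.S, another ligand, had 81 coding reads of 4685, 1.73%, the lowest share among tested members. At the other end, ephb3.S had 1083 coding reads of 2159, 50.2%, and epha2.L 553 of 1170, 47.3%.

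**Figure D1:**
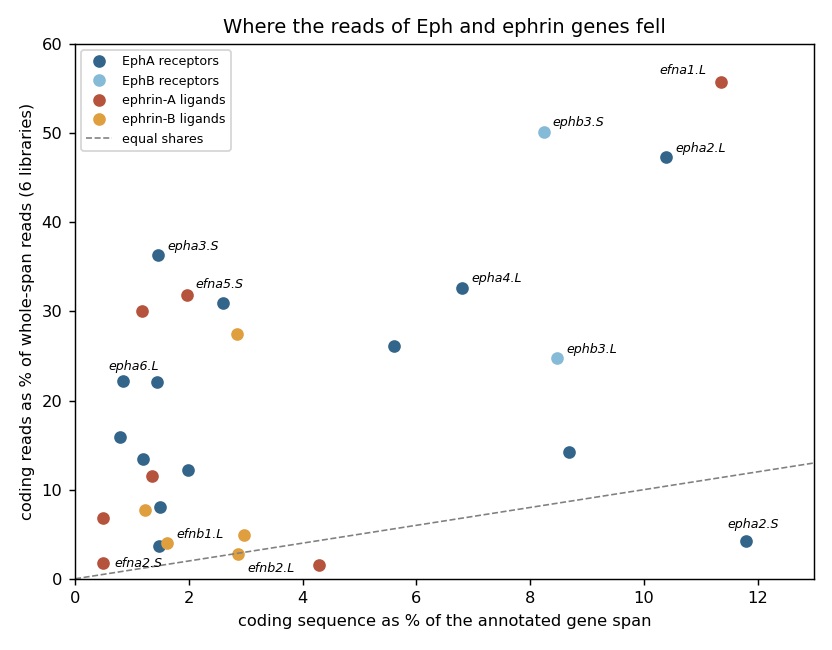
Coding reads as a percentage of whole-span reads, summed over 6 libraries, against the percentage of the annotated gene span that is coding, for members with at least 20 reads (one point per gene copy, coloured by class, some named). Most points lie above the dashed line of equal shares and below 40%; efna1.L, with 52 reads, is highest at 55.8%, and efnb1.L is at 3.97%.

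Between IN and NPC, no Eph or ephrin gene passed the test. Of the 30 genes, 25 had enough reads to enter the fit over all 19158 genes, and 0 of 25 were called by edgeR's quasi-likelihood test at an adjusted p of 0.05 (adjusted p = 1 for each), where 0% of all genes tested were called. At an unadjusted p under 0.05 the members again gave 0 of 25, beside 3.43% of all genes. DESeq2 and limma-voom also called 0 of 25, beside 88 and 0 of all genes. Log2 fold changes, IN minus NPC, were above 0 in 12 members and below 0 in 13, with a median of -0.02, beside a median of -0.03 over all genes. The libraries of one group varied about as much as in other genes: the median coefficient of variation within groups was 77.2% for members and 80.1% for all genes tested. The 95% interval reached from 1.28 log2 units to each side of the estimate (efnb1.L) to 4.58 (epha8.L), and over 2 units, a 4-fold change, in 17 of 25 members. A missing call therefore does not show equal levels. A single library held over 50% of the reads in 3 of 25 members (12%; epha10.S, epha2.L and efnb2.L), beside 25.2% of all genes tested.

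**Figure D2:**
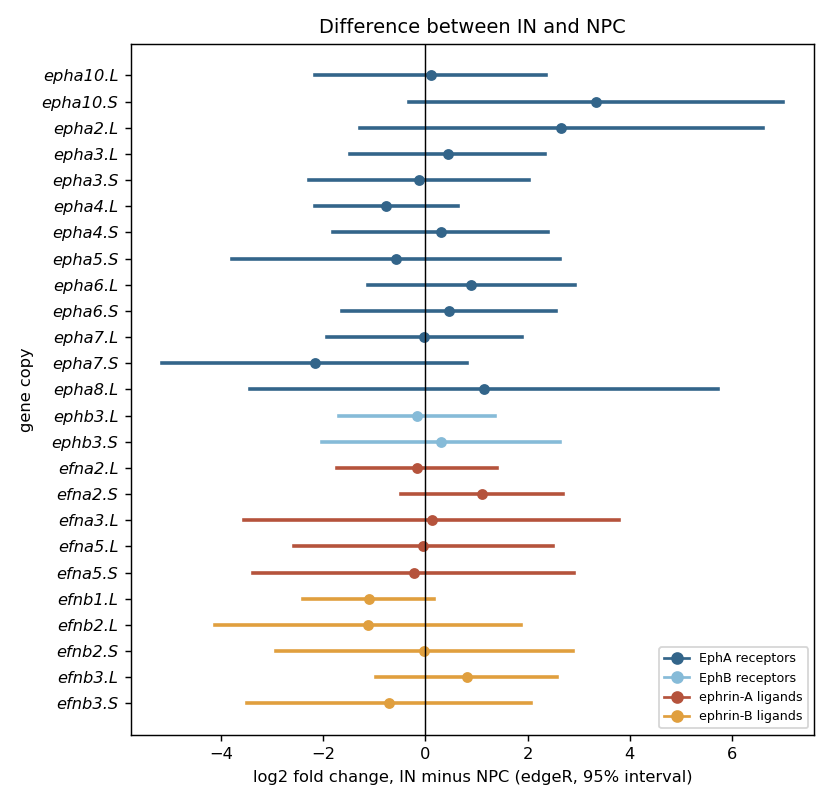
Log2 fold change (IN minus NPC) of the 25 tested members with edgeR's 95% interval, from whole-span counts in 3 NPC and 3 IN libraries, coloured by class. Every interval includes 0; epha10.S has the highest estimate, 3.35, and epha7.S the lowest, -2.17.

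The other 5 members had few reads. ephb6.L, whose mammalian counterpart lacks kinase activity, had 4 reads, all in IN library 1. efna1.S had 0 reads in all 6 libraries, and efna1.L had 0, 0 and 0 reads in NPC against 29, 0 and 23 in IN. efna4.L had 0, 59 and 0 reads in NPC against 2, 3 and 0 in IN. epha2.S had 0, 1 and 193 reads in NPC against 85, 1 and 0 in IN, so 68.9% of its reads came from a single library. None of these gives a comparison between the groups.

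Among EphA receptors, epha4.L had the highest level per length of exon (27.2 CPM per kilobase, mean of 6 libraries). EphA4 binds ephrins of both classes and is a guidance receptor on many axons. epha4.L (5L, 122787822 to 122831340, minus strand) had 772, 1690 and 647 whole-span reads in NPC libraries 1 to 3 against 937, 712 and 545 in IN. NPC library 2 stood above the other libraries, which overlapped between groups. The levels were 125 ± 74.7 CPM in NPC and 73.6 ± 18.2 in IN (SD, n = 3 each), a log2 fold change of -0.76 (SE 0.67), and of -0.15 without NPC library 2. Its S copy had 95, 785 and 117 reads in NPC against 744, 175 and 584 in IN, again overlapping, with a log2 fold change of 0.30 (SE 1.01). In the coding counts, epha4.L had 280, 979 and 71 reads in NPC against 86, 149 and 166 in IN (log2 fold change -2.02, SE 1.16). Those of epha4.S were 14, 6 and 2 in NPC against 232, 2 and 396 in IN, so IN library 2 was as low as NPC; the log2 fold change there was 4.47 (SE 2.09, adjusted p = 1, edgeR). Its 95% interval, 0.13 to 8.81, was not adjusted for the number of genes tested and is not read as a difference.

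EphA3, EphA5, EphA6 and EphA7 are best known from chick and mouse as receptors that sort retinal or cortical axons. epha3.L had 462, 386 and 115 whole-span reads in NPC against 719, 366 and 416 in IN (37.2 ± 19.7 and 50.3 ± 18.1 CPM, log2 fold change 0.43, SE 0.92). epha6.L had 414, 119 and 195 reads in NPC against 932, 263 and 354 in IN (27.8 ± 14.7 and 51.7 ± 35.3 CPM, log2 fold change 0.90, SE 0.97, and 0.18 without IN library 1). In both genes the highest library was IN library 1 and the groups overlapped. Their S copies ranged more widely, epha3.S from 51 to 965 reads and epha6.S from 130 to 1045, and had fold changes of -0.13 and 0.46 on the log2 scale. Over coding sequence epha3.S had 113, 15 and 28 reads in NPC against 510, 0 and 242 in IN, which overlapped, and a log2 fold change of 2.06 (SE 1.78).

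epha7.S had the lowest fold change of the family in whole-span counts. It had 429, 321 and 36 reads in NPC against 99, 22 and 78 in IN, or 30.0 ± 22.2 and 6.68 ± 3.95 CPM. NPC library 3 lay among the IN libraries, and the log2 fold change of -2.17 (SE 1.43) had a 95% interval from -5.15 to 0.82. epha7.L, the more abundant copy, had 1144, 229 and 117 reads in NPC against 798, 568 and 252 in IN, a log2 fold change of -0.02 (SE 0.92). Over coding sequence its groups did not overlap, with 128, 6 and 47 coding reads in NPC against 318, 262 and 200 in IN. Per kilobase of coding sequence NPC library 1 (10.6 CPM) lay just under IN library 3 (10.7), and the log2 fold change was 1.85 (SE 1.52, adjusted p = 1, edgeR). epha5.S, the only annotated copy of its symbol, had 266, 68 and 51 whole-span reads in NPC against 156, 67 and 65 in IN.

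epha10.S was the 1 tested member, of 25, whose groups did not overlap in whole-span CPM, beside 8.76% of all genes tested. EphA10 lacks kinase activity in mammals. Its reads were 45, 4 and 10 in NPC against 535, 69 and 69 in IN, or 2.18 ± 2.28 and 22.3 ± 26.4 CPM, and IN library 1 held 73.1% of them. The log2 fold change was 3.35 (SE 1.76, 95% interval -0.32 to 7.01, adjusted p = 1, edgeR), and it was 1.69 without IN library 1 and 4.63 without NPC library 1. In the coding counts the groups overlapped, at 20, 0 and 0 reads in NPC against 64, 13 and 1 in IN. Its other copy, epha10.L, had 406, 21 and 449 reads in NPC against 239, 459 and 390 in IN (log2 fold change 0.11, SE 1.09), and with the copies summed the groups overlapped (log2 fold change 0.70, SE 0.96). The annotated coding sequences of both copies, 948 and 972 bases, are short for an Eph receptor; those of the other EphA members are 2781 to 3072 bases.

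epha2.L and epha8.L were at 0 reads in NPC libraries 2 and 3. EphA2 is best known from epithelia, and in epha2.L the reads were 150, 0 and 0 in NPC against 917, 61 and 42 in IN, with IN library 1 holding 78.4%. epha8.L had 70, 0 and 0 reads in NPC against 25, 48 and 89 in IN. In both genes NPC library 1 reached into the range of the IN libraries, and the fitted log2 fold changes of 2.66 (SE 1.89) and 1.15 (SE 2.20) were estimated with these NPC libraries at 0.

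In the EphB class the naming rule gave only ephb3.L, ephb3.S and ephb6.L, and ephb6.L had 4 reads. Other EphB genes (ephb1, ephb2 and ephb4) have no member under this rule and were not analysed here. Receptors of the EphB class act in dorsal-ventral mapping of retinal axons. ephb3.L (5L, 97061025 to 97095517, plus strand) had 964, 297 and 878 whole-span reads in NPC against 695, 963 and 556 in IN, or 83.4 ± 40.4 and 74.5 ± 20.9 CPM. The groups overlapped, and its log2 fold change of -0.16 (SE 0.73) had one of the narrower intervals, from -1.68 to 1.35. ephb3.S had 495, 20 and 378 reads in NPC against 701, 486 and 79 in IN (log2 fold change 0.30, SE 1.12), with NPC library 2 far below the others. Over coding sequence ephb3.L had 207, 204 and 336 reads in NPC against 29, 34 and 266 in IN. Scaled to library size these were 18.1, 15.8 and 22.6 CPM per coding kilobase in NPC. They were 2.28, 2.24 and 15.0 in IN, below all NPC libraries but with IN library 3 just under the lowest NPC library. The log2 fold change of -1.53 (SE 1.41) did not pass (adjusted p = 1, edgeR). ephb3.S did not separate there (343, 1 and 157 coding reads in NPC, 264, 282 and 36 in IN).

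**Figure D3:**
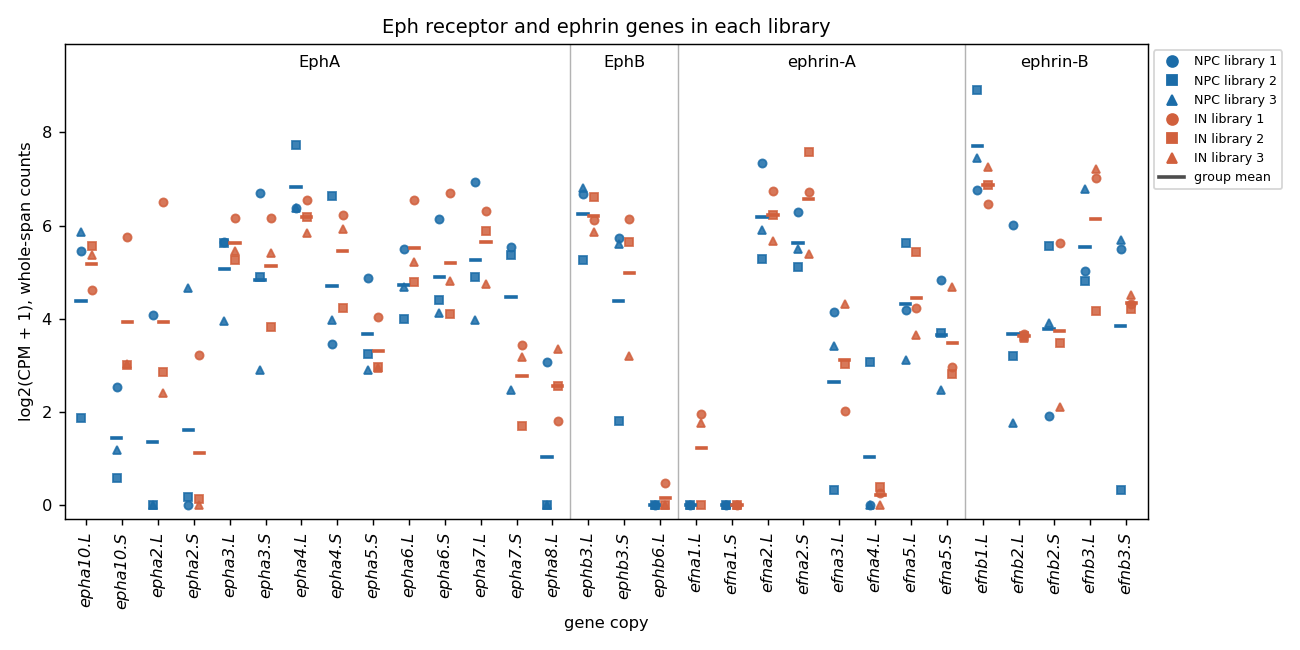
Level of each of the 30 members in each library as log2(CPM + 1) from whole-span counts; blue is NPC, orange is IN, symbols mark library numbers and bars the group means of 3. Points of both groups intermingle in most genes, and epha10.S is the only tested member with all IN points above all NPC points.

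Among ligands, the efna2 copies had the highest level per length of exon in the family, a scale that divides counts including intron reads by exon length. Per kilobase of gene span efna2.L and efna2.S were at 0.660 and 0.677 CPM, below efnb1.L at 3.05. In chick and mouse, ephrin-A2 and ephrin-A5 rise towards the posterior tectum and repel axons from the temporal retina. efna2.L (1L, 96541565 to 96665036, minus strand) had 1521, 302 and 469 whole-span reads in NPC against 1078, 730 and 486 in IN, or 86.1 ± 65.9 and 76.9 ± 28.3 CPM. Its groups overlapped, with a log2 fold change of -0.16 (SE 0.75). efna2.S had 733, 270 and 348 reads in NPC against 1059, 1877 and 398 in IN, or 51.8 ± 23.0 and 112 ± 75.0 CPM, and here the lowest IN library lay within the NPC range. Its log2 fold change was 1.11 (SE 0.76, 95% interval -0.47 to 2.69), and 0.50 without IN library 2. Coding reads of efna2.S were 1, 0 and 25 in NPC against 25, 22 and 8 in IN, which also overlapped.

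efna5 was present at lower whole-span counts but with 30.1% (L copy) and 31.8% (S copy) of its reads in coding sequence. efna5.L had 162, 387 and 61 reads in NPC against 180, 414 and 112 in IN, and efna5.S 258, 95 and 36 in NPC against 69, 59 and 238 in IN. Both overlapped fully, with log2 fold changes of -0.04 (SE 1.22) and -0.23 (SE 1.50). Coding reads of efna5.S were 132, 18 and 36 in NPC against 7, 38 and 9 in IN, overlapping too, with a log2 fold change of -2.10 (SE 2.06). The only annotated copy of efna3, efna3.L, a ligand known in mouse hippocampus from astrocytes that contact EphA4 on neurons, had 158, 2 and 77 reads in NPC against 31, 71 and 183 in IN.

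In whole-span CPM the ephrin-B ligands were led by efnb1.L, and per kilobase of coding sequence by efnb3.L. Ephrin-B1 is known from the mouse cortex, where it helps to keep progenitors undifferentiated. efnb1.L (8L, 20713437 to 20774758, minus strand) had 1016, 3869 and 1385 whole-span reads in NPC against 882, 1143 and 1476 in IN. NPC library 2 held 39.6% of all of them, and NPC library 1 lay between IN libraries 1 and 2. The levels were 255.5 ± 200.4 and 118 ± 32.5 CPM, and the log2 fold change of -1.11 (SE 0.61) had the narrowest interval of the family, from -2.39 to 0.17. Without NPC library 2 this was -0.25. Coding reads were 294, 61 and 0 in NPC against 1, 27 and 5 in IN, and here NPC library 1, not 2, was the highest.

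The efnb3 copies had fold changes of opposite sign. efnb3.L, whose mouse counterpart is a midline barrier to EphA4-bearing axons in the spinal cord, had 296, 216 and 869 reads in NPC against 1312, 166 and 1439 in IN (log2 fold change 0.81, SE 0.85, and 1.75 without NPC library 3). efnb3.S had 416, 2 and 402 reads in NPC against 191, 173 and 211 in IN, with NPC library 2 nearly empty and the other NPC libraries above IN (log2 fold change -0.71, SE 1.34). Its coding reads gave the opposite order, 0, 2 and 46 in NPC against 52, 161 and 122 in IN, without overlap and with a log2 fold change of 2.71 (SE 2.17, adjusted p = 1, edgeR). In NPC library 1 all 416 reads of efnb3.S were thus counted outside coding sequence. This copy has no annotated UTR, and its gene model holds no other exon. Together with epha7.L and ephb3.L, efnb3.S was one of 3 members of 19 tested over coding sequence whose groups did not overlap there, beside 9.63% of the 15422 genes tested in that table. With TopHat2 coding counts this was 3 of 17 members, beside 9.62% of all genes tested. The sign of the fold change was the same over coding sequence and over the whole span in 12 of these 19 members (63.2%) and in 81.3% of the 15270 genes tested in both tables.

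Ephrin-B2 marks arteries as well as neural tissue. efnb2.L had 600, 66 and 19 reads in NPC against 119, 112 and 107 in IN, and efnb2.S 26, 369 and 110 in NPC against 490, 100 and 32 in IN. Both overlapped, with log2 fold changes of -1.12 (SE 1.44) and -0.02 (SE 1.39). Endothelial markers (8 symbols, 16 copies, tie1.S at 0) summed to 50.7 to 183 CPM in NPC and 23.8 to 100.4 in IN. Only 5 of the 16 copies had enough reads to test. A large part of the sum was cldn5.L, with 252, 802 and 827 reads in NPC against 191, 110 and 438 in IN. The part of endothelial cells in the efnb2 values was not tested.

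Summed over all members, receptors and ligands overlapped between the groups, with IN to NPC ratios of 1.04 and 0.874. EphA receptors summed to 622, 502 and 267 CPM in NPC and 785, 314 and 366 in IN, an IN to NPC ratio of group means of 1.05. EphB receptors gave 155, 39.6 and 159 CPM in NPC and 138, 147 and 65.4 in IN, a ratio of 0.993. Ephrin-A ligands gave 300, 139 and 125 CPM in NPC and 242, 320 and 148 in IN, a ratio of 1.26. Ephrin-B ligands gave 249, 565 and 352 CPM in NPC and 296, 172 and 336 in IN, a ratio of 0.689, the lowest of the 4 classes. Without NPC library 2 the ephrin-B ratio was 0.894, and the EphB ratio, 0.749, was the lowest. All 4 sums overlapped between groups. With each member first divided by its exon length, the ephrin-B sums were 92.1, 146 and 120 in NPC against 78.0, 56.1 and 90.1 in IN (CPM per kilobase, ratio 0.626). These did not overlap by a narrow margin. The leading member of this sum was efnb1.L, at 28.6, 128.6 and 46.6 in NPC against 23.2, 30.8 and 40.4 in IN. Another part came from efnb3.S, with only 999 exon bases, at 44.1, 0.250 and 50.9 in NPC against 18.9, 17.6 and 21.8 in IN. Per kilobase of gene span or of coding sequence the ephrin-B sums overlapped. Over coding sequence the ratios were 1.25 for EphA, 0.630 for EphB, 0.719 for ephrin-A and 0.751 for ephrin-B, so the ephrin-A sum was higher in IN in whole-span counts and lower in coding counts.

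**Figure D4:**
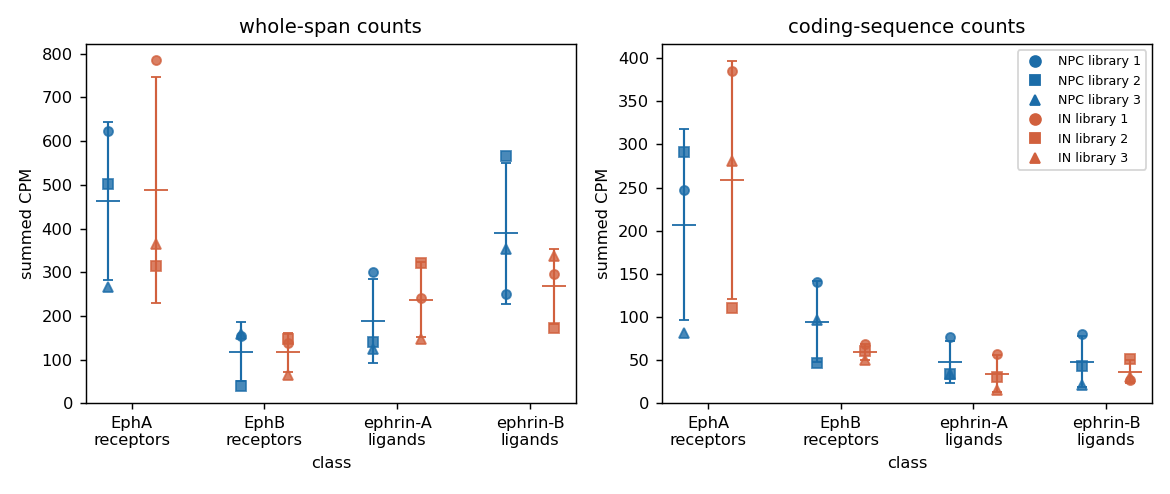
Summed CPM of each class per library from whole-span counts (left) and coding-sequence counts (right); blue is NPC, orange is IN, symbols mark library numbers, horizontal bars the mean and error bars the SD of 3 libraries. In both panels the NPC and IN points of each class overlap.

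Between classes, the summed A-class receptors exceeded the B class in most libraries on each scale. Per kilobase of exon, the EphA sum was 2.54 to 14.0 times the EphB sum, above 1 in 6 of 6 libraries, with a median ratio of 6.21. This compares 14 genes with 3, since ephb1, ephb2, ephb4 and epha1 have no member under the naming rule and were not analysed here. The order of the sums is therefore not an order of levels per gene. Per kilobase of coding sequence the median was 3.85, above 1 in 5 of 6 libraries, and per kilobase of gene span it was 1.87, above 1 in 4 of 6. The ephrin-A to ephrin-B ratio depended on the scale: it was 2.19 per kilobase of exon (0.920 to 5.14, above 1 in 4 of 6 libraries), 1.24 per kilobase of coding sequence and 0.397 per kilobase of gene span. The receptor to ligand ratio was 0.525 per kilobase of exon (below 1 in 6 of 6 libraries), 0.819 per kilobase of coding sequence (above 1 in 2 of 6) and 1.10 per kilobase of span. No order of ephrin-A against ephrin-B, or of receptors against ligands, held on every scale.

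Single genes were ranked differently as well. Per kilobase of exon the highest means over 6 libraries were efna2.L (71.1 ± 39.8 CPM per kilobase, SD over libraries), efna2.S (70.5 ± 51.3), efnb1.L (49.7 ± 39.5) and epha4.L (27.2 ± 15.4). Per kilobase of coding sequence they were efna5.L (25.4 ± 19.9), epha4.L (21.5 ± 27.0), efnb3.L (21.0 ± 16.8) and efna2.L (19.5 ± 17.1), while efna2.S was at 4.60 ± 4.22. Neighbours in each order differed by less than the SD of either gene, except efnb1.L and epha4.L per kilobase of exon, whose difference was above the SD of epha4.L and below that of efnb1.L. efna2.L and epha4.L were in the top 4 on both scales.

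The L and S copies of a gene did not keep a fixed proportion. In whole-span reads the larger copy changed from library to library in all 11 pairs with reads in every library, and the range of the L share had a median of 49.3 percentage points over all 12 pairs. For efna2 the L copy held 67.5%, 52.8% and 57.4% of the reads in NPC against 50.4%, 28.0% and 55.0% in IN. For efnb2 it held 95.8%, 15.2% and 14.7% in NPC and 19.5%, 52.8% and 77.0% in IN. The narrowest range among the 11 was that of epha6, from 38.7% to 62.3%. With both copies scaled to exon length, the L copy was the higher in 6 of 6 libraries for epha3, epha4 and ephb3. Per kilobase of gene span it was the higher in 4, 6 and 6 of 6, and over coding sequence only in 2, 4 and 3 of 6. Reads that fit both copies may have been dropped or given to either, since the sources used here do not say how such reads were handled. Summing the copies left 15 symbols to test, with 0 called by edgeR and 0 without overlap between groups, beside 8.74% of all genes tested with copies summed.

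**Figure D5:**
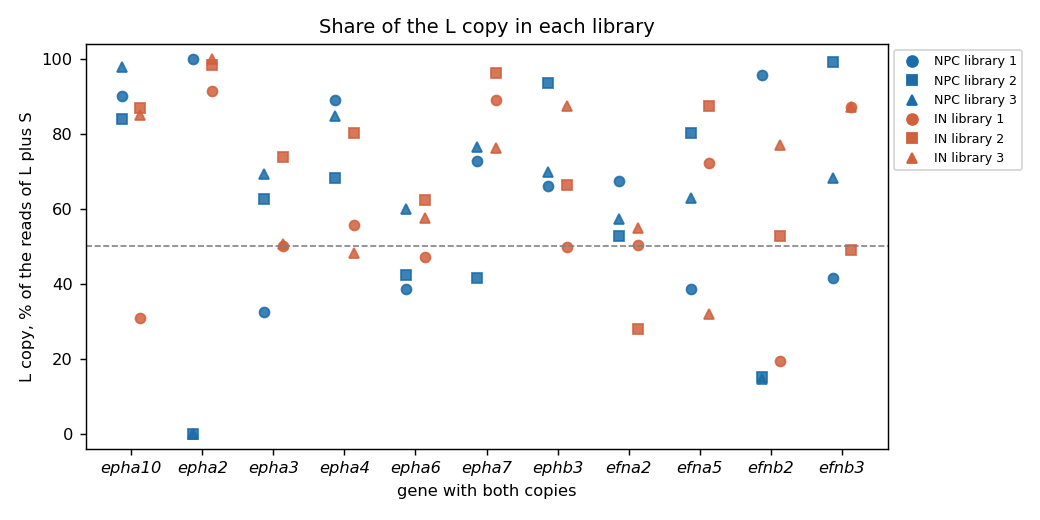
Percentage of the whole-span reads of L plus S that fell on the L copy, for the 11 genes with reads in every library; blue is NPC, orange is IN, symbols mark library numbers and the dashed line is 50%. Every gene has points on both sides of the line, and efnb2 spans 14.7% to 95.8%.

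Genes that act with Ephs and ephrins are given for 3 lists, and none of their tested copies passed (edgeR). Among genes that process ephrins and Ephs at the membrane, 14 copies were tested, of which 8 had fold changes above 0 and 6 below, with a median of 0.25 on the log2 scale and 2 at an unadjusted p under 0.05. Among adaptors and kinases at receptor tails, 24 copies were tested, 12 above 0 and 12 below, with a median of 0.13 and 0 at an unadjusted p under 0.05. Among partners of ephrin-B tails, 11 copies were tested, 5 above 0 and 6 below, with a median of -0.51 and again 0 at an unadjusted p under 0.05. The median over all genes tested was -0.03, and 3.43% of them had an unadjusted p under 0.05 (edgeR). The 2 copies under 0.05 in the processing list were psen2.L and adam17.L, each with most of its reads in a single library. Copies whose groups did not overlap numbered 0 of 14, 8 of 24 and 2 of 11, and 11 of 83 over the whole pathway list, beside 8.76% of all genes.

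Among the copies named, src.S, a kinase recruited by Ephs and ephrin-Bs, had 138, 115 and 91 reads in NPC against 628, 552 and 225 in IN, without overlap (13.5 ± 1.73 and 47.1 ± 20.9 CPM). ptpro.L, a phosphatase that acts on Eph receptors in chick retina, had 1175, 1905 and 1781 reads in NPC against 687, 1038 and 789 in IN, also without overlap (log2 fold change -1.21, SE 0.59). Both separations held in whole-span counts only, since coding reads of src.S were 13, 8 and 0 in NPC against 441, 172 and 2 in IN, and those of ptpro.L 579, 306 and 900 in NPC against 314, 387 and 393 in IN. In adam17.L, a membrane protease, 5928 of the reads came from NPC library 3, while the other libraries held 74 to 633. Over coding sequence adam17.L had 154, 1 and 186 reads in NPC against 41, 0 and 554 in IN. psen2.L, part of the gamma-secretase that cleaves ephrin-B and EphB stubs, and yes1.S, a Src-family kinase, each rested on 1 or 2 IN libraries, with 656, 105 and 5 reads and 0, 223 and 30 reads in IN. Coding reads of psen2.L were 28, 0 and 1 in NPC against 0, 88 and 4 in IN. The adjusted p was 1 for each of these 5 genes (edgeR).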

How the data were processed

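The authors deposited 3 tables of raw read counts, not normalized. Per the sheet names in the deposited tables they hold STAR alignments over mRNA, STAR alignments over coding sequence and TopHat2 alignments over coding sequence. The submitters' processing notes also list FastQC, Trimmomatic, HTSeq and DESeq2; the sources used here give no version, strand setting or handling of multiply matching reads, so the split between near-identical L and S copies, and between genes that overlap, is uncertain. Start and end coordinates are in the authors' deposited annotation, genome build 9.1 and annotation version 1.8.3.1 per the file headers; the name of the deposited annotation gives a later version. Columns were read as D for dark-exposed (NPC) and L for light (IN), numbered as in the sample titles.

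The deposited mRNA counts, which were found to include intron reads, were tested with edgeR 4.0.16 in R 4.3.3 (filterByExpr, TMM, quasi-likelihood, robust, 2-sided) and Benjamini-Hochberg adjustment over all 19158 genes. CPM is TMM-scaled. Alternatives were other scalings and filters, DESeq2 1.42.0, limma-voom (limma 3.58.1), both coding tables, a block for the replicate number, leaving out each library, summed copies and other thresholds; levels per kilobase of gene span were added after the tables were seen. The code was tested on simulated counts. Levels per kilobase used exon length, as planned, with coding length and gene span beside it. Named with all values were, per class, the 4 copies of highest level per kilobase of exon, the 2 of lowest p, and members without overlap; further members were named after their values were seen. Of the whole pathway list, the 3 copies of lowest p in each direction were to be named; part of that list, and 1 of those copies, is not reported here. Members, pathway genes and markers were chosen with earlier results of these data known. Of the members, 6 overlap another annotated gene, 4 of them on the opposite strand. Each of those other genes lies inside the span of the member and had 0 reads. Reads that fit both genes may have been dropped from both, so these counts of 0 do not show that no reads fell there. Nothing in the labels ties the libraries to separate animals, so the p-values reflect the spread of these 6 samples, which may be technical.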

Additional observations from a re-analysis of the deposited data

How the results depend on the processing

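The count of 0 Eph and ephrin genes called held under every alternative run. Over all genes, 16 were called without a filter and 88 by DESeq2, and 0 to 2 with a library left out (1 without NPC replicate 1, 2 without NPC replicate 3). Members without overlap numbered 3 of 19 over coding sequence with STAR (9.63% of all genes), 3 of 17 with TopHat2 (9.62%) and 0 of 15 symbols with copies summed (8.74%). Deviations of same-numbered libraries correlated at 0.115, 0.0468 and 0.0815, not all over 0.1, so the numbers were not taken as pairs. Each library still correlated best with its own number, and coding shares matched by number, a hint from the data and not the design; with the replicate block 0 members and 0 genes were called.

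Of 251 fold changes of 16 named genes under alternatives, 213 kept their sign and 38 did not; 6 genes kept it throughout, and no gene passed the threshold. The cause was not tested. On the log2 scale, STAR and TopHat2 coding counts gave -0.59 and -0.51 for epha3.L, 0.30 and 0.50 for efna5.L, -0.34 and -0.28 for efnb3.L and 2.71 and 2.94 for efnb3.S, and TopHat2 gave -0.022 for ephb3.S. Limma-voom gave 0.0029 for efna2.L, 0.14 for efna5.L, 0.073 for efnb2.S and 1.03 for efnb3.S. The replicate block gave 0.035 for efna2.L, 0.14 for efna5.L and 0.27 for efnb3.S. Upper-quartile scaling gave 0.083 for efna5.L and 0.13 for efnb2.S. Summed copies gave -0.0087 for ephb3, 0.45 for efna2 and 0.43 for efnb3. With each library left out, values ran from -0.43 to 0.70 for epha10.L, -0.51 to 0.10 for ephb3.L, -0.25 to 0.80 for ephb3.S, -0.51 to 0.65 for efna2.L, -0.73 to 0.94 for efna5.L, -1.18 to 0.57 for efna5.S and -1.64 to 1.31 for efnb2.S.

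The IN to NPC ratio of summed ephrin-A ligands was 0.719 with STAR and 0.714 with TopHat2 coding counts, and that of all ligands 0.735 and 0.740 instead of 0.874. The EphA to EphB ratio was 1.87 per kilobase of gene span. The ephrin-A to ephrin-B ratio was 0.629 without division by length and 0.397 per kilobase of span. The receptor to ligand ratio was 0.819 and 0.860 with STAR and TopHat2 coding counts, 0.915 without division by length and 1.10 per kilobase of span. Over coding sequence 19 of 30 members could be tested with STAR and 17 with TopHat2, against 25 over the whole span. Intervals from reads without molecular identifiers cover the spread between these libraries only.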
